A study of Bos grunniens with 6 samples.

Results

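The miR-200 family consists of 5 related miRNAs, miR-200a, miR-200b, miR-200c, miR-141 and miR-429, and its levels were measured by small-RNA sequencing in cultured hair follicle cells of the yak (Bos grunniens). An entry was taken as a member when its cattle miRNA name, without the species prefix and any arm suffix, was one of these names. This gave 5 of the 2853 entries in the deposited table, of which 757 carry cattle miRNA names and 2096 are predicted. The series asked which miRNAs differ in level between 2 cell types, each with 3 libraries. Dermal papilla cells are the mesenchymal cells that sit in the follicle bulb. Hair matrix cells are the dividing epithelium around the papilla, whose progeny build the hair shaft. The labels class them as dermal and epidermal cells. Both were wild type, came from skin, and were grown in DMEM/F12 with penicillin-streptomycin, 10% FBS, 10 ng/mL IGF1 and 20 ng/mL EGF. The labels call the libraries biological replicates without naming animals or cultures, so p-values reflect only how far these libraries differ, which may be technical.

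Levels are given in RPM, which scales reads to a fixed total per library. Library totals were 23904796 to 24693655 reads, and listed entries took up 71.7% to 73.5% of them. The floor was set at 3 reads, which is 0.121 to 0.125 RPM, for counting error only. The epithelial and mesenchymal marker miRNAs separated the cell types. All 6 entries of the epithelial list (miR-184, miR-205, miR-375 and the miR-183, miR-182 and miR-96 cluster) were lower in dermal papilla cells, where they summed to 336 to 396 RPM, against 63341 to 65939 RPM in hair matrix cells. Of the 7 entries of the mesenchymal list, 6 were higher in dermal papilla cells, all except miR-140. The list summed to 88533 to 91340 RPM in dermal papilla cells, against 2035 to 2207 RPM in hair matrix cells. miR-375, under 1 RPM in every dermal papilla library, passed the filter on low values through the hair matrix libraries only, so it had to be lower in dermal papilla cells. miR-203, a further epithelial marker on the list, was not analysed here. Of 14 entries on the lists for blood, endothelial, muscle and melanocyte miRNAs, 5 passed the filter on low values, and miR-1 and miR-204 were called, both higher in dermal papilla cells. Beside these list counts, 19.9% of all 503 tested entries were called lower in dermal papilla cells and 25.2% higher. miR-204 and the melanocyte marker miR-211 differ at 1 base over 21, and miR-211 was at or under the floor of 3 reads in every library.

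A mature miRNA guides repression of mRNAs that pair with its seed, the bases 2 to 8 from its 5′ end. The miR-200 family is known for repressing ZEB1 and ZEB2, transcription factors that silence epithelial genes such as E-cadherin, and the ZEB factors in turn repress transcription of the family. In mouse skin the family is known from the epidermis. In human and mouse the family is encoded in 2 genomic clusters, one with miR-200b, miR-200a and miR-429 and one with miR-200c and miR-141. Genome positions in the yak were not used here.

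The seed divides the family in another way than the clusters do, so the deposited mature sequences are shown by seed group, 5′ to 3′ in DNA letters, with the seed in capitals. The members with the seed AATACTG were miR-200b, miR-200c and miR-429.
miR-200b: tAATACTGcctggtaatgatg
miR-200c: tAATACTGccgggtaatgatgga
miR-429: tAATACTGtctggtaatgccgt
The members with the seed AACACTG were miR-200a and miR-141.
miR-200a: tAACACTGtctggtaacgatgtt
miR-141: tAACACTGtctggtaaagatgg
No other entry of the table had either seed at bases 2 to 8. Counted from 1 at the 5′ end, the seed groups differ at base 4, which is C4T in miR-200a against miR-200b. Each cluster therefore holds both seeds. Over 21 aligned bases miR-200b and miR-200c differ only by T11G, and reads of such near-identical entries could have been divided between them by the authors' counting, so the split between these 2 members is uncertain. miR-141 and miR-200a differ by A17C and G22T over 22 aligned bases. The sequences are 21 to 23 bases long, so each read stands for 1 mature miRNA and levels need no length correction, but capture of different miRNAs in small-RNA libraries is known to be unequal.

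All 5 members were lower in dermal papilla cells than in hair matrix cells, by 290-fold to 426-fold. miR-200c, the most abundant member, listed as bta-miR-200c, had 42.8, 35.2 and 42.7 RPM in the dermal papilla libraries, against 11997, 11588 and 11960 RPM in the hair matrix libraries. miR-200a (bta-miR-200a), from the other cluster and the other seed group, had 26.1, 21.6 and 27.9 RPM in dermal papilla cells, against 7142, 7514 and 7430 RPM in hair matrix cells. For both members the highest dermal papilla library lay far below the lowest hair matrix library. In dermal papilla cells miR-200c held ranks 154 to 162 among all entries by level, and miR-200a ranks 182 to 189. In hair matrix cells they held ranks 10 and 12 in every library.

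The other members were less abundant. miR-200b (bta-miR-200b), which shares its cluster with miR-200a and its seed with miR-200c, had 2.97, 1.80 and 2.97 RPM in dermal papilla cells, against 1154, 1111 and 1031 RPM in hair matrix cells. miR-429 (bta-miR-429), of the same cluster and seed as miR-200b, had 2.68, 1.75 and 2.43 RPM in dermal papilla cells, against 703, 818 and 724 RPM in hair matrix cells. Neither member had overlapping libraries between the cell types. miR-141 (bta-miR-141), the partner of miR-200c in its cluster, had 0.502, 0.585 and 0.289 RPM in dermal papilla cells, against 139, 128 and 132 RPM in hair matrix cells. Its dermal papilla values rest on 12, 14 and 7 reads, and their exact Poisson intervals at 95%, which cover counting error only, run from 0.116 to 0.981 RPM.

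**Figure D1:**
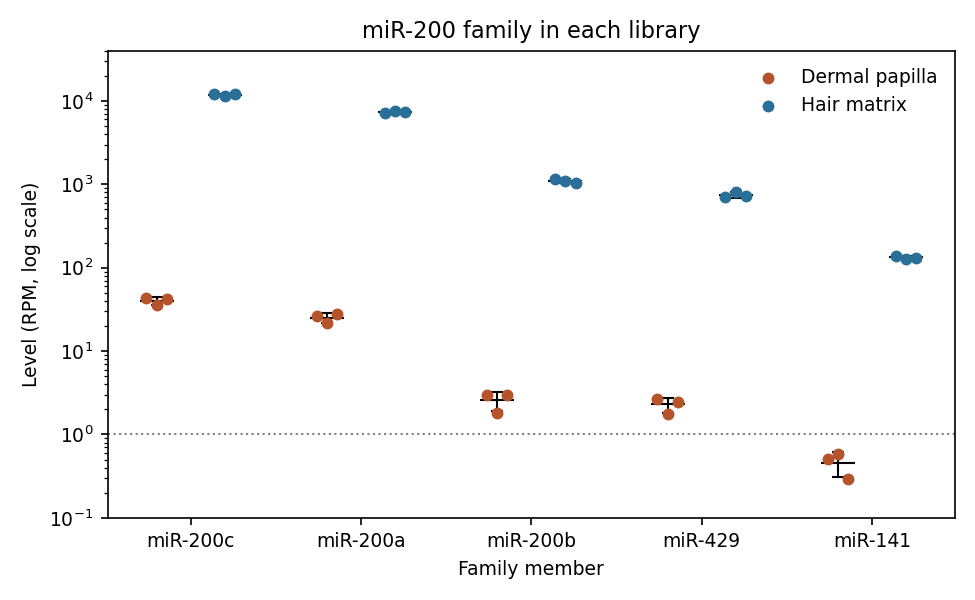
Level of each member in RPM on a log scale, with 1 point per library, the mean as a dash and the SD as bars (n = 3), and the filter of 1 RPM as a dotted line. Every dermal papilla point lies below every hair matrix point of the same member, and miR-141 is the only member under 1 RPM in dermal papilla cells.

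The test covered entries that reached 1 RPM in 3 or more libraries, on log2(RPM + 1), which understates the change of low entries. A call needed a Benjamini-Hochberg adjusted p under 0.05 and a change of at least 2-fold. All 5 members passed this filter and all 5 were called lower in dermal papilla cells, where 19.9% of the 503 tested entries were called in that direction. None of the 5 overlapped between the cell types, and 42.3% of tested entries were likewise lower in dermal papilla cells without overlap. miR-141 passed the filter through the hair matrix libraries only and so had to be lower in dermal papilla cells, while the other 4 members reached 1 RPM in every library.

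The mean of miR-200c was 40.2 ± 4.36 RPM in dermal papilla cells, against 11848 ± 226 RPM in hair matrix cells (SD, n = 3 each), which is 294-fold lower in the papilla, and its log2 change was -8.17 ± 0.079 (SE, limma adjusted p = 3.88e-10). miR-200a averaged 25.2 ± 3.26 RPM in dermal papilla cells, against 7362 ± 195.3 RPM in hair matrix cells, 292-fold lower, with a log2 change of -8.14 ± 0.092 (limma adjusted p = 6.49e-10). miR-200b averaged 2.58 ± 0.677 RPM in dermal papilla cells, against 1099 ± 62.7 RPM in hair matrix cells. It was 426-fold lower, with a log2 change of -8.28 ± 0.14 (limma adjusted p = 2.52e-09). miR-429 averaged 2.29 ± 0.478 RPM in dermal papilla cells, against 748 ± 61.3 RPM in hair matrix cells, 327-fold lower, with a log2 change of -7.84 ± 0.12 (limma adjusted p = 1.60e-09). miR-141 averaged 0.459 ± 0.153 RPM in dermal papilla cells, against 133 ± 5.62 RPM in hair matrix cells, 290-fold lower. Its log2 change was -6.53 ± 0.097 (limma adjusted p = 1.60e-09) on the log2(RPM + 1) scale and -8.18 as the log2 ratio of mean RPM.

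The median log2 change of the members was -8.14, and that of all tested entries was -0.01. From the most negative change upwards on the log2(RPM + 1) scale, the members stood at positions 1, 2, 3, 7 and 10 of the 503, an order that depends on the pseudocount. With 10 RPM added, miR-200b was at -6.46, less negative than miR-200c at -7.89 and miR-200a at -7.72. The change of miR-141 was -3.77 with 10 RPM added in place of 1 RPM, and the member stayed called. Without any 1 of the hair matrix libraries, miR-141 no longer reached 1 RPM in 3 libraries and was not tested, which left 4 members called. With miR-200b and miR-200c summed into 1 entry, an alternative chosen after the data were seen, the log2 change was -8.21 (limma adjusted p = 5.80e-10).

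**Figure D2:**
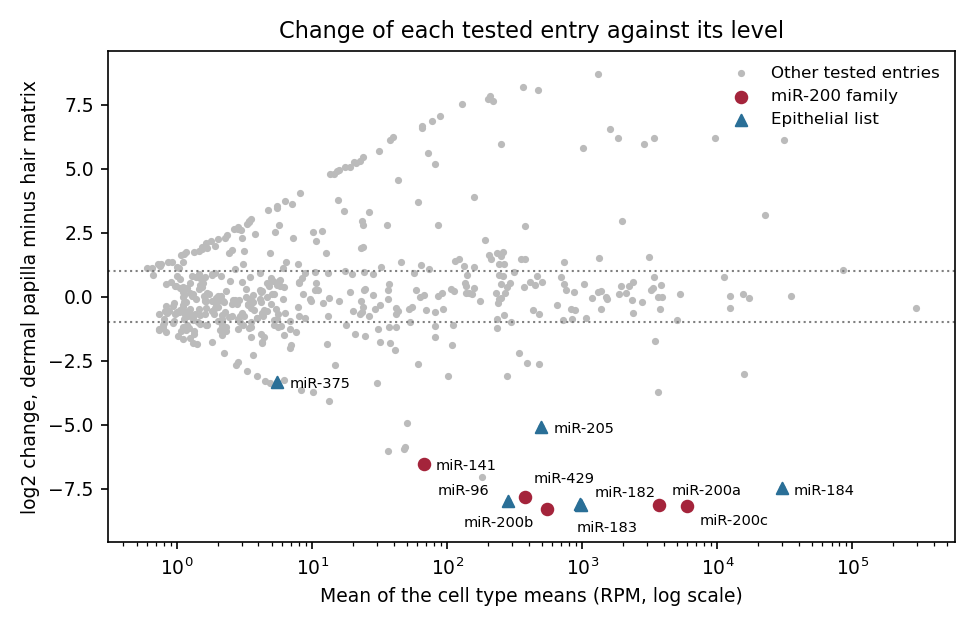
Log2 change on the log2(RPM + 1) scale, dermal papilla minus hair matrix, of the 503 tested entries against the mean of the cell type means in RPM (log axis), with the 2-fold minimum as dotted lines. The 5 members (circles) and miR-183, miR-182, miR-96 and miR-184 of the epithelial list (triangles) lie at the lower edge, between -6.53 and -8.28, while miR-205 and miR-375 lie at -5.09 and -3.33.

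The order of the levels was the same in both cell types, miR-200c above miR-200a, miR-200b, miR-429 and miR-141, and each step held in 3 of 3 libraries of each cell type. The step between miR-200b and miR-429 in dermal papilla cells was about the size of its spread, at 0.290 ± 0.247 RPM (SD of the difference, n = 3), and the ranges of these neighbours overlapped there. In dermal papilla replicate 2 they had 43 and 42 reads. In hair matrix cells the same step was 351 ± 87.5 RPM and the ranges did not overlap. The remaining neighbours did not overlap in either cell type.

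As a whole the family had 75.1, 60.9 and 76.3 RPM in the dermal papilla libraries and 21134, 21159 and 21277 RPM in the hair matrix libraries. The hair matrix libraries lay within 1 narrow band, whereas dermal papilla replicate 2 was below the others of its type. The family was 299-fold lower in dermal papilla cells, a difference of -8.23 between the mean log2 totals (exact two-sided permutation p = 0.1, which is the smallest that 3 against 3 libraries allow). In bulk RNA, fewer cells that carry the family and less of it per cell cannot be told apart.

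Within the family, the balance between the seed groups was close in the 2 cell types. The members with the seed of miR-200b summed to 48.5, 38.8 and 48.1 RPM in dermal papilla cells, against 13854, 13518 and 13714 RPM in hair matrix cells. Those with the seed of miR-200a summed to 26.6, 22.1 and 28.2 RPM in dermal papilla cells, against 7280, 7642 and 7563 RPM in hair matrix cells. The ratio of the sums was 1.82, 1.75 and 1.71 in dermal papilla libraries and 1.90, 1.77 and 1.81 in hair matrix libraries, and the cell types overlapped. The miR-200b seed group thus held 63.8% ± 0.760 of the family in dermal papilla cells, against 64.6% ± 0.846 in hair matrix cells (SD, n = 3 each). The difference of the log2 ratios was -0.05 ± 0.041 (SE, exact permutation p = 0.3, adjusted over the 2 ratios 0.4), and over the 9 pairs of libraries it ran from -0.16 to 0.04.

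The balance between the clusters was also close. The miR-200b/miR-200a/miR-429 cluster summed to 31.8, 25.1 and 33.3 RPM in dermal papilla cells, against 8998, 9443 and 9184 RPM in hair matrix cells. For the miR-200c/miR-141 cluster the sums were 43.3, 35.8 and 43.0 RPM in dermal papilla cells, against 12136, 11716 and 12093 RPM in hair matrix cells. The ratio of the first to the second was 0.733, 0.701 and 0.774 in dermal papilla libraries and 0.741, 0.806 and 0.760 in hair matrix libraries, which overlapped. The difference of the log2 ratios was -0.06 ± 0.055 (SE, exact permutation p = 0.4, adjusted p = 0.4), and over pairs of libraries it ran from -0.20 to 0.06. The cluster sums depend on the uncertain split of reads between miR-200b and miR-200c, which lie in different clusters. The seed group sums do not, since these members share a seed. Both ratios are carried by miR-200c and miR-200a, which together hold 90.3% to 93.2% of the reads of the family in each library. When each member weighed equally, as a difference of mean log2 values, the seed group difference was -0.23 and the cluster difference -0.22 (exact permutation p = 0.5 for each). A p above the threshold does not show that the balance was the same.

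**Figure D3:**
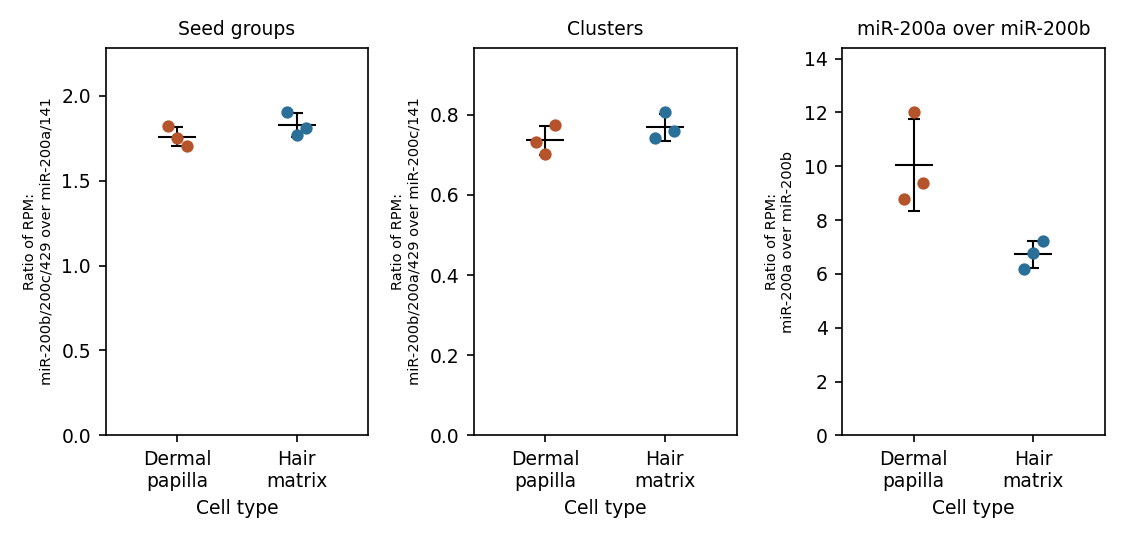
Ratio of summed RPM between seed groups (left), between clusters (middle) and of miR-200a to miR-200b (right), with 1 point per library, the mean as a dash and the SD as bars (n = 3). Seed group and cluster ratios overlap between the cell types, whereas the miR-200a to miR-200b ratio is 8.79 to 12.0 in dermal papilla libraries and 6.19 to 7.21 in hair matrix libraries.

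The members kept similar shares of the family. miR-200c made up 56.9% ± 0.925 of family reads in dermal papilla cells, against 55.9% ± 1.03 in hair matrix cells (SD, n = 3 each). miR-200a made up 35.6% ± 0.912 in dermal papilla cells, against 34.7% ± 0.874 in hair matrix cells. miR-429 held 3.21% ± 0.343 in dermal papilla cells, against 3.53% ± 0.292 in hair matrix cells, and miR-141 held 0.669% ± 0.291 in dermal papilla cells, against 0.628% ± 0.0273 in hair matrix cells. For these 4 members the cell types overlapped. miR-200b was the exception, with 3.96%, 2.95% and 3.89% of family reads in dermal papilla libraries, against 5.46%, 5.25% and 4.84% in hair matrix libraries. Its dermal papilla shares rest on 71, 43 and 72 reads, so counting error adds to their uncertainty. Its share was lower in dermal papilla cells in every pair of libraries (exact permutation p = 0.1, the smallest that 3 against 3 allow, before adjustment over the 5 members). This comparison of shares was chosen after the values were seen. The near-identical miR-200c had far more reads than miR-200b. The split of reads between them is uncertain, and so is the lower share of miR-200b.

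**Figure D4:**
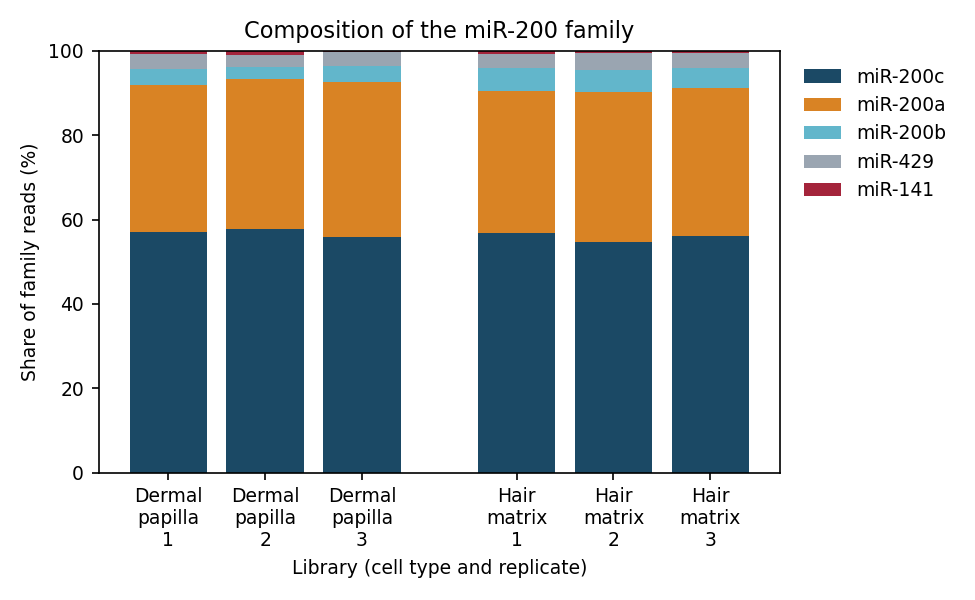
Share of each member in the reads of the family, in percent, as stacked bars for the 3 dermal papilla libraries and the 3 hair matrix libraries. miR-200c and miR-200a make up 90.3% to 93.2% of the bar in each library, and the miR-200b segment is thinner in dermal papilla cells, at 2.95% to 3.96%, than in hair matrix cells, at 4.84% to 5.46%.

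Within the miR-200b/miR-200a/miR-429 cluster, the ratio of miR-200a to miR-200b was 8.79, 12.0 and 9.39 in dermal papilla cells, against 6.19, 6.76 and 7.21 in hair matrix cells. The ratio of miR-429 to miR-200b was 0.901, 0.977 and 0.819 in dermal papilla cells, against 0.609, 0.736 and 0.702 in hair matrix cells. Neither ratio overlapped between the cell types, and miR-200b is the denominator of both. The ratio of miR-200c to miR-200b, across the clusters, did not overlap either. It was 14.4, 19.6 and 14.4 in dermal papilla cells, against 10.4, 10.4 and 11.6 in hair matrix cells. These ratios all depend on the uncertain split of reads between miR-200b and miR-200c, and in dermal papilla cells on 43 to 72 reads of miR-200b. The ratio of miR-200a to miR-429, which leaves miR-200b out, was 9.75, 12.3 and 11.5 in dermal papilla cells, against 10.2, 9.19 and 10.3 in hair matrix cells, and it overlapped. In the miR-200c/miR-141 cluster, the ratio of miR-200c to miR-141 was 85.3, 60.2 and 148 in dermal papilla cells, against 86.3, 90.7 and 90.4 in hair matrix cells. The wide dermal papilla range rests on the 7 to 14 reads of miR-141 there.

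In dermal papilla cells the members stood at 0.235% to 0.345% of their hair matrix means. The epithelial list stood at 0.227% to 2.88% of its hair matrix means. miR-182, miR-183 and miR-96, products of 1 transcript known from sensory organs and epithelia, were at 0.315%, 0.311% and 0.227%. miR-184, abundant in corneal epithelium, was at 0.557%, miR-375, known from endocrine cells, at 1.55%, and miR-205, a miRNA of stratified epithelia that also represses ZEB1 and ZEB2, at 2.88%. The percent of miR-375 is uncertain, since its dermal papilla values of 0.293, 0.125 and 0.0825 RPM lie near or under the floor of 3 reads. The dermal papilla level of miR-205, at 32.5, 22.02 and 28.5 RPM, overlapped that of miR-200a, while its hair matrix level, at 930, 974 and 984 RPM, lay below that of miR-200b in every library. Dermal papilla replicate 2 was the lowest of its type for 4 of 5 members and for 5 of 6 epithelial entries. There the family total was 0.805 times, and the epithelial list total 0.861 times, the mean of the other 2 libraries. The median over 410 tested entries with at least 1 RPM in each dermal papilla library was 0.978. The family total is carried mainly by miR-200c and miR-200a and the list total by miR-184, so they are not like a median over entries. The share of all tested entries that were lowest in this library was not counted here. The part of epithelial cells in these low dermal papilla levels was not tested.

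**Figure D5:**
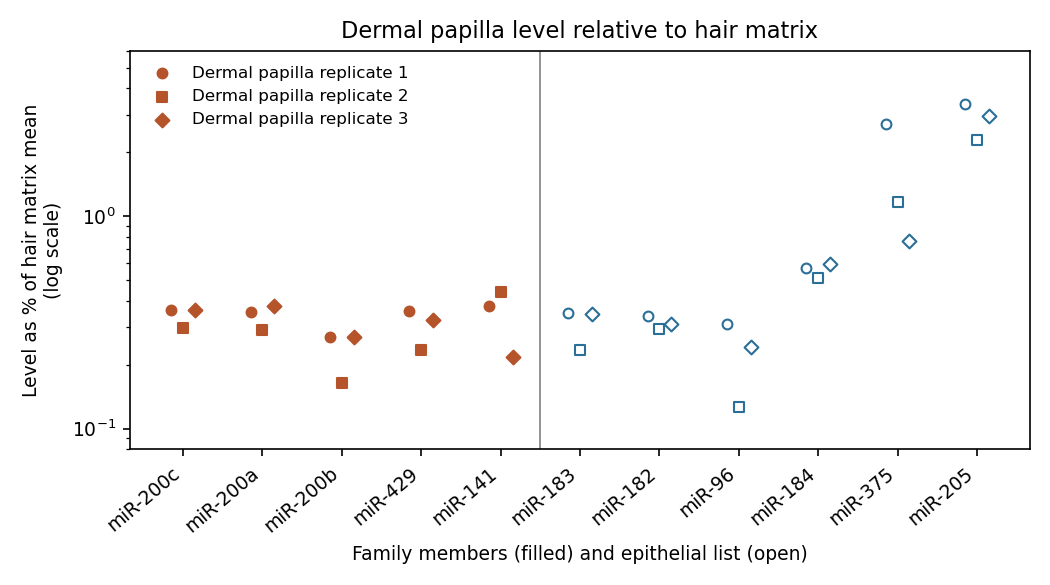
Level in each dermal papilla library as a percent of the hair matrix mean of the same miRNA (log axis), for the 5 members (filled) and the epithelial list (open), with 1 symbol per replicate. Members lie between 0.164% and 0.440%, close to miR-183, miR-182 and miR-96, while miR-184, miR-375 and miR-205 lie higher.

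Among 408 other tested entries with cattle names, those most like the family were found by the distance of their profile over the 6 libraries from the mean profile of the members, on log2(RPM + 1) centred on each entry's own mean. The nearest was miR-96, at a distance of 0.153, followed by miR-182 at 0.156, miR-184 at 0.161 and miR-183 at 0.186. For comparison, the members themselves lay at 0.0763 for miR-429 to 0.653 for miR-141. miR-96 had 1.76, 0.710 and 1.36 RPM in dermal papilla cells, against 552, 571 and 565 RPM in hair matrix cells. The fifth entry was miR-11986b at 0.376, with 1.88, 1.30 and 1.90 RPM in dermal papilla cells, against 319, 378 and 375 RPM in hair matrix cells. The next entry lay further off, at 0.886. These distances describe 2 separate groups of libraries and carry no test. The 1 RPM added understates the change of low entries such as miR-141, which shifts the mean profile. The order of close entries is therefore uncertain. By mean RPM, miR-184 was 179-fold lower in dermal papilla cells, miR-11986b 211-fold, miR-182 317-fold, miR-183 321-fold and miR-96 441-fold. The members were 290-fold to 426-fold lower, so miR-96 lay beyond their range.

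Other miRNAs reported to act on epithelial-mesenchymal transition were called in both directions. Such calls were common across the table, with 19.9% of tested entries lower in dermal papilla cells and 25.2% higher. Of 7 entries reported to oppose the transition, 4 were tested, and 3 were lower in dermal papilla cells. These were miR-205, 34.8-fold lower, and miR-34a and miR-34c, which are induced by p53, 3.78-fold and 2.98-fold lower. miR-34c and miR-34b differ at 1 base, so the value of miR-34c is uncertain. miR-101, known to repress EZH2, was at 164 ± 6.90 RPM in dermal papilla cells, against 186 ± 8.25 RPM in hair matrix cells (SD, n = 3 each) and was not called. Of 7 entries reported to promote the transition, all were tested. Called lower in dermal papilla cells were miR-221 and miR-222, which repress KIT, by 3.29-fold and 8.70-fold. miR-221 is near-identical to the entry miR-2481 over 19 bases. Called higher there, as were 25.2% of tested entries, were miR-155, known from immune cells, by 3.32-fold, and miR-10b, of a HOX cluster and near-identical to miR-10a, at 6749 ± 140 RPM in dermal papilla cells, against 92.4 ± 14.4 RPM in hair matrix cells. The remaining 3, miR-21-5p, miR-21-3p and miR-9-5p, were not called, with log2 changes of -0.46, -0.74 and 0.26. The median log2 change was -1.53 over the 4 tested entries of the first list and -0.46 over the 7 of the second, against -0.01 over all tested entries.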

How the data were processed

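The labels' protocols give 1 µg RNA per sample as input to TruSeq small RNA library construction. Trimmomatic, HISAT2 2.2.1.0 and DESeq 1.20.0 are listed without roles, per the submitters' processing notes. Not given in the sources used here are the genome build, the set of reference miRNAs and the treatment of multiply matching reads. The authors label the deposited values TPM, but they behave as RPM: 100% of values above 0 are whole multiples of 1 step per library within 0.001 read. These steps gave the whole reads per entry.

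limma 3.58.1 (R 4.3.3) was fitted to log2(RPM + 1) of the 503 entries that reached 1 RPM in 3 or more of the 6 libraries. Cell type was the only term, variances followed a trend with the mean, and p-values were adjusted over all 503 by the Benjamini-Hochberg method. Changes are dermal papilla minus hair matrix. Ratios and totals were tested by exact permutation of libraries (Python 3.11.15). Replicates differed by more than counting noise, with a chi-square of 26.6 to 76.8 per degree of freedom. Near-identical means at most 1 mismatch over 18 or more bases.

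Members and lists were chosen with earlier results of these data known. Members, the 5 entries nearest in profile, and tested list entries are named. Alternatives were other pseudocounts, filters and scalings, a replicate block, edgeR 4.0.16 and DESeq2 1.42.0 on recovered reads, and leaving out each library.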

Additional observations from a re-analysis of the deposited data

How the results depend on the processing

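Each member kept its direction and its call under every alternative in which it was tested, with log2 changes of -8.42 to -7.72 for miR-200a, -8.76 to -6.46 for miR-200b, -8.45 to -7.89 for miR-200c, -8.38 to -5.94 for miR-429 and -8.19 to -3.77 for miR-141. Leaving out 1 library gave -8.22 to -8.04, -8.37 to -8.11, -8.22 to -8.08, -7.92 to -7.72 and -6.59 to -6.44 in the same order, and 4 or 5 members called. Wherever a filter was applied, miR-141 passed it through the hair matrix libraries only and had to be lower. Its kept direction therefore says nothing about its stability. With the filter of 10 RPM, miR-200b and miR-429 also passed through the hair matrix libraries only, so under that setting they had to be lower as well. Among all tested entries, 227 were called, 100 of them lower in dermal papilla cells. With a pseudocount of 10 these were 117 and 40, and with a filter of 10 RPM 127 and 47. Median centring gave 246 and 137, and moved the median log2 change from -0.01 to -0.29. edgeR called 284 and DESeq2 286 on the recovered reads. Without hair matrix replicate 1, 2 or 3, the calls lower in dermal papilla cells were 64, 60 and 61, because fewer entries passed the filter, and leaving out any 1 library gave 166 to 191 calls in all. Without 1 library the seed group difference was -0.08 to -0.03, the cluster difference -0.10 to -0.03 and the family total -8.29 to -8.13. With so few libraries the exact permutation p of these 3 values could not pass 0.05 under any setting, so it says nothing about their stability.

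Same-numbered libraries of the 2 cell types correlated in their deviations at 0.141, 0.0798 and -0.275, and differently numbered ones at -0.43 to 0.388. With so few libraries, these values cannot show whether the replicate numbers pair the libraries. With the replicate block 228 entries were called, 5 members among them, and the seed group, cluster and family differences were -0.05, -0.06 and -8.23. In dermal papilla cells depth limits miR-141, at 7 to 14 reads a library.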

Other observations

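A pair of predicted entries in the table is related in sequence to miR-200a, and was chosen after its values were seen. The arm that the authors labelled as star, novel1012_star>novel1019_star, holds the exact reverse complement of miR-200a over 21 bases, shown in capitals, and differs from the reverse complement of miR-141 at 1 base.
Predicted star arm: CATCGTTACCAGACAGTGTTAga
Predicted mature arm: cagcactgtccggtaagatgt
The star arm had 2, 1 and 1 reads in the dermal papilla libraries and 34, 52 and 26 reads in the hair matrix libraries, or 1.38, 2.12 and 1.08 RPM there. This is 0.0146% to 0.0283% of the miR-200a level in hair matrix cells. In dermal papilla cells the star arm was at 0.148% to 0.321% of the miR-200a level, on only 1 or 2 reads a library. The arm labelled as mature, novel1012_mature>novel1019_mature, had 0, 0 and 1 reads in dermal papilla cells and 222, 220 and 216 reads in hair matrix cells, or 8.99, 8.99 and 8.997 RPM there. Both arms were thus counted mainly in the cell type with high miR-200a. Whether these reads came from the strand opposite to the miR-200a gene was not tested, since no genome was used here.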
